A study of Arabidopsis thaliana with 8 samples.

Results

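The wild-type accessions Wassilewskija (Ws) and Ler-0 (Ler) of Arabidopsis thaliana were compared in untreated whole seedlings, 7 days old. All arrays whose source was labelled Wassilewskija or Ler-0 were taken, 4 of the 8 arrays of the series, 2 for each accession. The other 4 arrays held seedlings of the same age from 2 mutants, 1 de-etiolated in a Col background and 1 gibberellin-deficient in a Ler background, with 2 arrays each. The allele of the gibberellin-deficient mutant was described as leaky, the labels gave no name for either mutated gene, and Col was present only through the de-etiolated mutant. The 4 mutant arrays entered the fit, where they added to the estimate of spread and to the filter on low values. They took no part in the difference of Ws and Ler itself, and are described beside it.

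Accessions are inbred lines derived from natural populations, and they differ by many changes in DNA sequence, among them lost, duplicated and diverged genes. Ler descends from a line carrying a mutation in ERECTA, a receptor kinase that shapes stems and leaves. Natural variation in Arabidopsis is well known for glucosinolates, the sulphur-containing defence compounds of the cabbage family, for flowering time and for disease resistance genes. The probes were designed on the sequence of a reference accession. A lower signal can therefore come from less transcript or from a transcript whose sequence differs under the probes, and these cannot be told apart here.

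Values were MAS5 signal intensities, 1 per probe set and array, for 22746 probe sets other than array controls. The trimmed mean signal was 100.01 in every array to within rounding, and the median lay between 34.9 and 38.4. In these arrays the 27 bacterial control probe sets, for which the plant has no transcript, had median signals of 2.09 to 5.71, and none exceeded 19.95 on any array. The activase of Rubisco (RCA), a marker of green tissue, had signals of 1167 and 946 in Ws and 961 and 913 in Ler. Signals of the root hair expansin EXPA7 were 127 and 104 in Ws and 101 and 79.1 in Ler, so both the green and the root marker were well above the bacterial controls in every wild-type array. A pair of RNA controls moved with the accession. For the older actin control probes, signal at the 3′ end exceeded that at the 5′ end 2.26 and 1.90 times in Ws but 5.22 and 4.77 times in Ler. The corresponding ratio of the older ubiquitin probes was 1.27 and 1.28 in the Ws arrays against 0.671 and 0.627 in the Ler arrays. In both ratios the gibberellin-deficient mutant lay nearer Ler and the de-etiolated mutant nearer Ws. Newer actin probes gave ratios of 1.16 to 1.50 on the 8 arrays. The ratio of the GAPDH probes overlapped between the accessions, at 1.01 and 1.22 in Ws and 0.968 and 1.14 in Ler. The part of these controls in the differences below was not tested.

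With 2 arrays for each accession, a small share of the probe sets tested was called different between Ws and Ler. A probe set was called different at an adjusted p under 0.05 in the limma fit of log2(signal + 2.96) to all 8 arrays. Differences are given as Ws minus Ler on that log2 scale, so a positive value is higher in Ws. Of 13648 probe sets tested, 794 (5.82%) were called, 370 (2.71%) higher in Ws and 424 (3.11%) higher in Ler. Before adjustment, 2476 (18.1%) had a limma p under 0.05, so the share called is not the share that differs. With each array centred on its median, 770 were called, and the balance turned to 469 higher in Ws and 301 higher in Ler. Of the 794, 377 (2.76% of those tested) differed at least 2-fold, 162 higher in Ws and 215 higher in Ler. At least 4-fold differences were found for 72 probe sets, at least 8-fold for 30 and at least 16-fold for 10. Without Ws replicate 1 the number called fell to 351, without Ler replicate 2 to 385, without Ler replicate 1 to 458 and without Ws replicate 2 to 485. The number at least 2-fold apart stayed between 292 and 391 when any 1 of the 8 arrays was left out.

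The size of the accession difference can be read against the arrays of 1 accession. Between the 2 Ws arrays the median absolute log2 difference was 0.19, and 166 of the tested probe sets lay at least 2-fold apart. Between the 2 Ler arrays the median was also 0.19, with 136 at least 2-fold apart. A Ws array set against a Ler array gave medians of 0.23 to 0.26, with 539 to 695 probe sets at least 2-fold apart. The typical probe set was thus only slightly further apart between accessions than between arrays of 1 accession, while the number of large differences was several times greater. Across probe sets, log2 signals correlated at 0.976 within either accession and at 0.939 to 0.950 between them, a description over probe sets that share the same arrays.

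**Figure D1:**
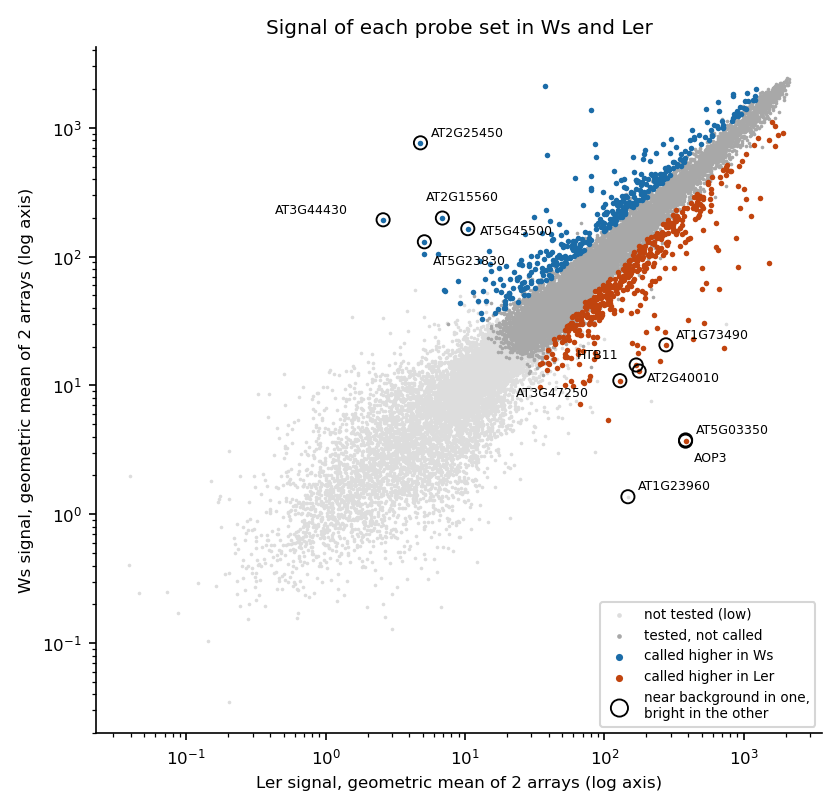
Each point is 1 of 22746 probe sets, at the geometric mean signal of the 2 Ler arrays (horizontal, log axis) and of the 2 Ws arrays (vertical, log axis); blue and red mark those called higher in Ws (370) and in Ler (424), and black rings mark the 12 genes near background in one accession and bright in the other. Most points lie along the diagonal, and the ringed genes lie far from it on either side.

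The widest contrast was shown by genes near background in one accession and bright in the other. Near background meant a signal below the 40th percentile of the array in both arrays of an accession, which was a signal of 22.5 to 25.6 in the wild types. Bright meant a signal above the 75th percentile in both arrays, which was 102 to 107. All non-control probe sets were considered, without a filter. These genes were chosen by the signals given here, so the values are a description and carry no test. Such probe sets were rare. Of 5310 bright in Ws, 5 were near background in Ler, and of 5313 bright in Ler, 7 were near background in Ws. Each of the 12 named a single gene.

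The 5 genes bright in Ws and near background in Ler are all known here only by their locus tags. Signal of AT2G25450 was 899 and 649.8 in Ws and 7.20 and 3.19 in Ler. AT3G44430 gave 198 and 188 in Ws against 2.70 and 2.48 in Ler, signals within the range of the bacterial controls. Both Ler arrays were thus far below both Ws arrays, with no value between. AT2G15560 had 182 and 218 in Ws and 12.1 and 3.93 in Ler. For AT5G23830 the signals were 137 and 124 in Ws and 7.34 and 3.56 in Ler. AT5G45500 lay at 133 and 204 in Ws and 16.8 and 6.54 in Ler, the least separated of the 5 on the log2 scale used here.

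The choice of these genes did not use the mutant arrays, which were split between the mutants for 4 of the 5. Each mutant background came with its own mutation, so background and mutation cannot be told apart in this split. In the gibberellin-deficient mutant, of Ler background, AT2G25450 had 18.8 and 22.3, AT3G44430 3.33 and 1.66, AT5G23830 18.9 and 13.5 and AT5G45500 2.07 and 1.23, all near background. AT2G15560 was the exception, with 151 and 152 in that mutant against 12.1 and 3.93 in Ler itself. In the de-etiolated mutant, of Col background, all 5 were bright, from 114 and 155 for AT5G23830 to 682 and 957 for AT2G25450.

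The 7 genes bright in Ler and near background in Ws included 2 with a symbol. Signal of AOP3, an oxygenase that modifies the side chain of methionine-derived glucosinolates, was 1.21 and 11.3 in Ws and 399 and 366 in Ler. HTB11, a histone H2B, had 9.07 and 18.4 in Ws and 166 and 189 in Ler. In neither gene did the arrays of one accession come near those of the other. Of the genes known by locus tag only, AT1G23960 had 1.35 and 1.38 in Ws and 146 and 149 in Ler. AT1G73490 gave 19.2 and 22.3 in Ws against 251 and 304 in Ler, and AT2G40010 gave 15.97 and 13.00 in Ws against 149 and 192 in Ler. For AT3G47250 the signals were 12.3 and 9.60 in Ws and 116 and 144 in Ler. The 2 Ler arrays disagreed for AT5G03350, with 800.0 and 183, although both were far above the 1.97 and 7.22 of Ws. AT5G03350 and AT1G23960 did not pass the filter on low values of the fit.

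In the gibberellin-deficient mutant 5 of the 7 were bright, as in Ler. AOP3 had 162 and 151 there, below the 399 and 366 of Ler, and AT1G23960 had 117 and 111. AT3G47250 lay between the limits, with 53.9 and 57.3. AT5G03350 had 3.76 and 18.7 and so was near background in that mutant, unlike in Ler. In the de-etiolated mutant 6 of the 7 were near background, and AT1G73490 had 23.2 and 34.4, on either side of the limit.

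**Figure D2:**
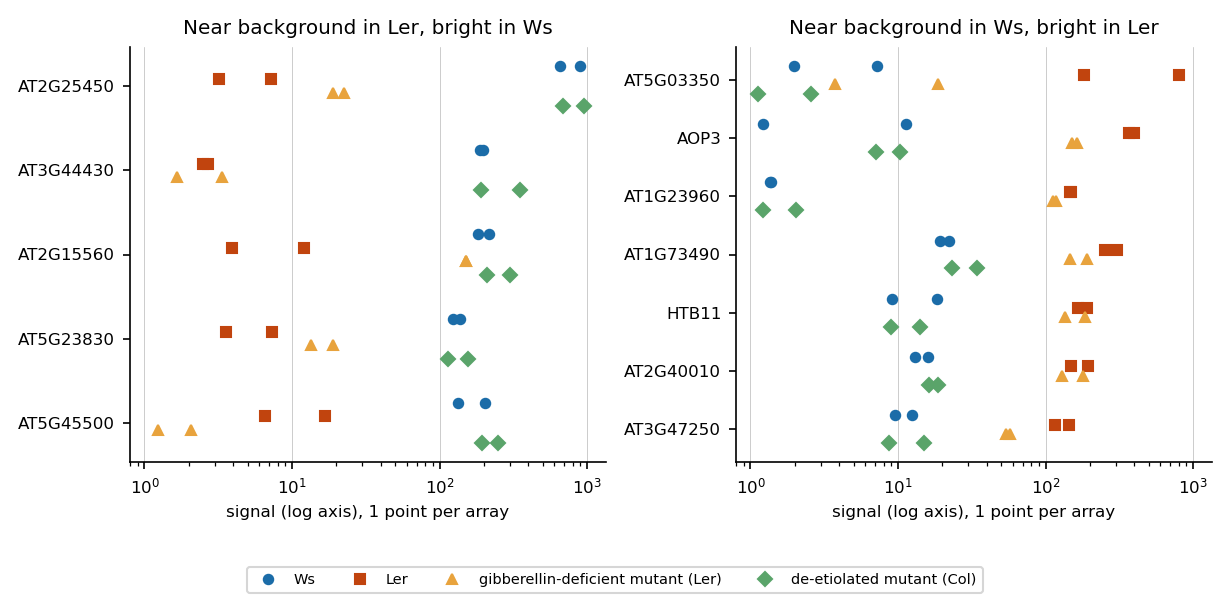
Signal (log axis) of the 12 genes on each of the 8 arrays, 1 point per array, with 5 genes near background in Ler on the left and 7 near background in Ws on the right. The gibberellin-deficient mutant lies with Ler for 4 of 5 genes on the left and 6 of 7 on the right, and the de-etiolated mutant lies with Ws for all 12 (AT2G15560 and AT5G03350 are the exceptions for the first mutant).

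The limits decide how many such genes there are. Just inside them, AT5G23830 had a lowest Ws signal of 124 and AT3G47250 a lowest Ler signal of 116, while AT1G73490 had a Ws signal of 22.3 in the array with the limit of 22.5. Just outside, AT2G01090 had 101 and 108 in Ws against 5.05 and 5.14 in Ler, and its Ws replicate 1 fell short of the 75th percentile. It was near background in the gibberellin-deficient mutant (10.1 and 10.9) and bright in the de-etiolated mutant (117 and 111). Meeting 3 of the 4 limits were 3 probe sets low in Ler and 22 low in Ws. With the bright limit at the 60th percentile, 19 probe sets were low in Ler and 25 were low in Ws. Of these 19, the gibberellin-deficient mutant was near background in 14 and the de-etiolated mutant in 0. Of these 25, the de-etiolated mutant was near background in 23 and the gibberellin-deficient mutant in 6. Without Ler replicate 2 the number near background in Ws and bright in Ler rose from 7 to 17, and without Ws replicate 2 to 15, with all 7 kept in each case. Since dim signals are compressed by the pseudocount, the log2 differences of these genes are smaller than the log2 ratios of their signals. How they relate to the difference in transcript was not tested.

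Among genes with a symbol, 1082 were tested, and 26 were called higher in Ws and 42 higher in Ler, 6.28% in all. The largest difference in favour of Ws was in PIP, a prolyl iminopeptidase, which removes proline from the ends of peptides. Its signal was 419 and 393 in Ws and 66.5 and 56.9 in Ler, a log2 difference (Ws minus Ler) of 2.66 (SE 0.17, limma adjusted p = 1.3e-06). ACLA-2, a subunit of ATP citrate lyase, which makes cytosolic acetyl-CoA, had 466 and 461 in Ws and 112 and 123 in Ler, a difference of 1.96 (SE 0.15, adjusted p = 8.1e-06). The subtilisin-like protease SBT4.12 had 199 and 163 in Ws against 54.9 and 40.1 in Ler, a difference of 1.87 (SE 0.19, adjusted p = 9.3e-05). For all 3 genes the arrays of the accessions were well apart. The 2 arrays of an accession lay close together for PIP and ACLA-2, and less so for SBT4.12.

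Of the 12 genes with a symbol that differed most in this direction, the other 9 differed by less. LUL1, a RING-type ubiquitin ligase, had 53.04 and 38.9 in Ws against 14.3 and 10.7 in Ler (1.66 on the log2 scale), and the transcriptional coactivator KELP had 62.1 and 68.9 in Ws against 33.8 and 16.5 in Ler (1.36). Glutathione transferase GSTU16 (1.22), the methionine sulfoxide reductase MSRB5 (1.03) and the glutaredoxin GRXC2 (0.94) act on thiols or oxidised methionine. GRXC2 had 856 and 846 in Ws and 488 and 398 in Ler. IAGLU, an enzyme that joins glucose to the auxin indole-3-acetic acid, had 143 and 165 in Ws against 71.7 and 83.2 in Ler, a log2 difference of 0.96. NET4B, of a family of actin-binding proteins (1.11), and LSMT-L, related to the lysine methyltransferase of Rubisco (1.06), were also called higher in Ws. LUL1, GSTU16 and NET4B were near background in Ler and the gibberellin-deficient mutant, and passed the filter on low values through the other groups. The plastid gene ccsA (1.28) is described with the plastid genome. Leaving out 1 array ended the limma calls of GSTU16 (adjusted p up to 0.14, without Ws or Ler replicate 1), IAGLU (0.080, without Ws replicate 2 or Ler replicate 1), LSMT-L (0.095) and LUL1 (0.10, both without Ws replicate 1 or Ler replicate 2). The call of KELP was lost without either Ws array or Ler replicate 2, and by some other settings (adjusted p up to 0.23). That of NET4B was lost without any 1 of the 4 wild-type arrays (0.17).

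Higher in Ler, AOP3 showed the largest log2 difference of a gene with a symbol, at -5.64, and HTB11 differed by -3.49. Both are among the genes near background in Ws and bright in Ler, so these differences are given without a test. JAL33, a jacalin-related lectin, had signals of 60.4 and 52.6 in Ws and 648 and 683 in Ler, a difference of -3.49 (SE 0.15, limma adjusted p = 5.4e-08). The arrays of each accession agreed closely for JAL33. The signal was 854 and 793 in the gibberellin-deficient mutant and 54.97 and 45.6 in the de-etiolated mutant, so each mutant lay beside one accession.

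The other 9 of the 12 genes with a symbol that differed most in favour of Ler had smaller differences. ECS1, a cell wall protein, had 27.4 and 24.7 in Ws and 283 and 141 in Ler, a difference of -2.81, with the Ler arrays about 2-fold apart. The carboxylesterase CXE20 had 11.95 and 8.30 in Ws against 64.6 and 54.8 in Ler (-2.27). CXE20 was near background in Ws and the de-etiolated mutant, and passed the filter on low values through the other groups. The drought-induced gene DI21 had 39.6 and 36.5 in Ws against 168 and 175 in Ler (-2.09). ALDH6B2, a methylmalonate-semialdehyde dehydrogenase of valine breakdown, had 110.0 and 105 in Ws and 403 and 366 in Ler (-1.81, SE 0.17). OSM34, an osmotin-like protein, had 38.5 and 38.6 in Ws against 167 and 103 in Ler (-1.69). DFR (-1.52) is described with the flavonoid pathway. UGT76B1, a glucosyltransferase acting in defence signalling, had 44.3 and 28.1 in Ws against 125 and 72.4 in Ler (-1.36). DER2.1, of the derlin family that acts in the removal of misfolded proteins from the endoplasmic reticulum (-1.35), and the phosphatase SAL2 (-1.32) were the last of them. The limma call of UGT76B1 was lost without either Ws array or Ler replicate 1 and with some other settings (adjusted p up to 0.28), and that of SAL2 without Ws replicate 1 or with no filter (0.15).

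**Figure D3:**
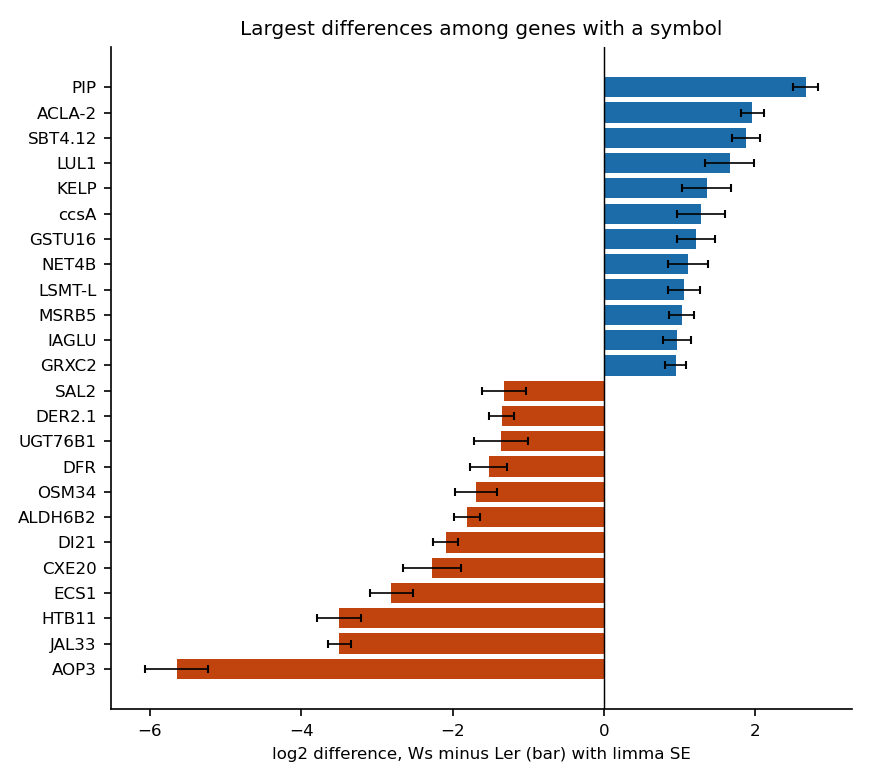
Log2 difference of Ws minus Ler (bars, horizontal axis) with the limma standard error for the 12 called genes with a symbol that differed most in each direction, from PIP (2.66) to AOP3 (-5.64). Bars to the right are higher in Ws and bars to the left higher in Ler. AOP3 and HTB11 were also chosen by their signals, so their bars carry no test. LUL1, GSTU16, NET4B and CXE20 were near background in 1 accession and passed the filter on low values through other groups.

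Genes known only by a locus tag gave larger differences in favour of Ws than any gene with a symbol. AT2G25510 had 2045 and 2158 in Ws and 39.05 and 36.2 in Ler, a log2 difference of 5.70 (SE 0.17, limma adjusted p = 4.4e-09). Its signal was 22.7 and 33.8 in the gibberellin-deficient mutant and 1442 and 1576 in the de-etiolated mutant. In Ler its signal was above the limit for near background, so it was not among the 5 genes above. The 5 genes near background in Ler and bright in Ws differed by 6.60 (AT2G25450), 5.14 (AT3G44430), 4.31 (AT2G15560), 4.02 (AT5G23830) and 3.61 (AT5G45500), values given without a test. AT5G38020 had 645 and 596 in Ws and 33.7 and 44.5 in Ler (3.90). AT2G01090, whose values are given above, differed by 3.74, and passed the filter on low values through Ws and the de-etiolated mutant.

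Higher in Ler among genes known by locus tag, AT4G33720 had 6.75 and 4.35 in Ws and 173 and 65.1 in Ler, a log2 difference of -3.70. AT4G33720 was near background in Ws and the de-etiolated mutant. It passed the filter on low values through the other groups, so its difference is given without a test. Its Ler arrays were more than 2-fold apart but both far above Ws. AT5G55450 had 83.3 and 83.9 in Ws against 1339 and 624 in Ler (-3.41), again with unequal Ler arrays. AT1G65500 had 49.9 and 62.6 in Ws against 533 and 466 in Ler (-3.09), and AT2G21045 had 34.5 and 22.5 in Ws against 233 and 242 in Ler (-2.96). Their Ler arrays agreed closely. AT1G73490 (-3.56), AT2G40010 (-3.31), AT3G47250 (-3.25) and AT5G47980 (-3.25) made up the 8. The first 3 of these 4 are among the genes near background in Ws and bright in Ler, and their differences carry no test.

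Glucosinolates are made from amino acids by chain elongation, core synthesis and side chain modification, and accessions are known to differ in the last step. Of 27 genes listed for the methionine-derived pathway 4 were measured by a probe set of their own, and AOP3 alone was called, against 5.82% of all probe sets tested. That call adds nothing to the choice of AOP3 by its signals above. AOP1, its neighbour and relative, had 39.6 and 35.4 in Ws and 58.5 and 59.03 in Ler, a log2 difference of -0.61 that missed the limma threshold (adjusted p = 0.092). BCAT4, the aminotransferase that starts chain elongation, had 714 and 694 in Ws and 919 and 723 in Ler (-0.21, adjusted p = 0.63). AT2G31790, listed in the pathway, had 227 and 203 in Ws against 188 and 206 in Ler (0.12, adjusted p = 0.77), and its arrays overlapped between accessions. UGT74B1, the glucosyltransferase of core synthesis and the measured gene of the tryptophan-derived list, differed by -0.54 (adjusted p = 0.11).

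Flavonoids and anthocyanins are phenylalanine-derived pigments and sunscreens. Of 26 listed genes of this pathway 6 were tested, 2 were called higher in Ler and 0 higher in Ws, against 3.11% and 2.71% of all probe sets tested. The median log2 difference of the 6 was -1.07, against -0.02 over all probe sets tested. DFR, the dihydroflavonol reductase on the way to anthocyanins, had 125 and 137 in Ws and 272 and 532 in Ler, a difference of -1.52 (SE 0.24, limma adjusted p = 0.0031). AT4G14090, another member of the list, had 59.6 and 71.1 in Ws against 164 and 329 in Ler (-1.79, adjusted p = 0.0021). For both genes Ler replicate 2 was about 2-fold above Ler replicate 1, and both lay above the Ws arrays. UF3GT, a glycosyltransferase of anthocyanins, had 69.5 and 73.97 in Ws against 138 and 227 in Ler (-1.27, adjusted p = 0.11), and the anthocyanin acyltransferase AT5MAT had 30.6 and 31.9 in Ws against 41.1 and 85.3 in Ler (-0.87, adjusted p = 0.14). The flavonol glycosyltransferases UGT78D1 (-0.82, adjusted p = 0.057) and UGT78D2 (-0.43, adjusted p = 0.13) did not pass either. All 6 were lower in both Ws arrays than in both Ler arrays, as were 26.2% of all probe sets tested, and 4 of the 6 were not called. In either direction the arrays of Ws and Ler did not overlap for 49.3% of the probe sets tested. DFR gave 409 and 453 in the gibberellin-deficient mutant and 37.96 and 43.4 in the de-etiolated mutant, which lay below Ws.

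Of 15 listed jacalin lectins 3 were tested. JAL33 was called, against 5.82% of all probe sets tested, while JAL34 (0.14, limma adjusted p = 0.61) and JAL22 (0.24, adjusted p = 0.68) were not. JAL34, whose locus tag follows that of JAL33, had 1508 and 1550.5 in Ws and 1269.8 and 1518 in Ler, close to the same level. Of the listed genes of triterpene clusters 2 were tested. AT5G47980 had 29.8 and 22.9 in Ws against 253 and 297 in Ler, and AT5G47950, also on the list, had 62.4 and 47.4 in Ws against 56.2 and 46.9 in Ler (0.08, adjusted p = 0.90).

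In the flowering and light list, which holds loci known to vary between accessions, and in the circadian list, GI was measured, a clock protein that promotes flowering in long days. It had 119.8 and 69.2 in Ws and 109 and 92.7 in Ler, with the Ler arrays inside the range of Ws, and a log2 difference of -0.13 (limma adjusted p = 0.81) that was 0.25 without Ws replicate 2. None of the 2 tested genes of the iron homeostasis list and the 2 of the root marker list was called, against 5.82% of all probe sets tested. Nor was the 1 tested gene on each list of jasmonate defence, low oxygen response, glutathione transferases (GSTU20) and green tissue. Lists this small cannot be set apart from that share. GSTU16, called higher in Ws above, is not among the measured genes of the glutathione transferase list. Of 4 genes often used as references for expression, AT4G34270 was called higher in Ler (3.11% of all probe sets tested were), with 50.9 and 58.3 in Ws and 122 and 122 in Ler (-1.12, adjusted p = 0.013). Its call was lost without Ws replicate 1 or either Ler array (adjusted p up to 0.095). PEX4 (0.07), AT2G28390 (0.03) and GAPC2 (0.46) were not called. Of 305 listed genes in 19 lists, 29 were tested, and 5 lists had no tested member, those of glucosinolate breakdown, handling responses, resistance receptors, salicylate defence and seed storage. Among families sharing a symbol stem, 25 glycosyltransferases (UGT) were tested and 2 were called higher in Ler, and 9 cytochromes P450 (CYP) were tested and 1 was called higher in Ler, counts too small to set apart from the 6.28% of genes with a symbol that were called. None of 14 TBL genes or 11 ubiquitin-specific proteases (UBP) was called.

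The share called and the size of the differences varied with the mean level. Of the 3412 tested probe sets with the highest mean level 7.71% were called, and of the 3412 with the lowest 3.63%. At least 2-fold apart were 86 of the 263 called at the highest levels and 104 of the 124 called at the lowest. Among the called genes of the highest mean signal, AT1G29070 had 2094 and 1878 in Ws and 1248 and 1196 in Ler, a log2 difference of 0.70. AT3G16370 had 2056 and 1714 in Ws against 1112 and 1005 in Ler (0.83), and AT5G67510 had 1313 and 1374 in Ws against 619 and 716 in Ler (1.01). IDH-V, a subunit of the mitochondrial isocitrate dehydrogenase, had 1167 and 1081 in Ws and 670.2 and 724 in Ler (0.69). Higher in Ler, AT4G23670 had 632 and 814 in Ws and 1586 and 1742 in Ler (-1.21). AT2G41090 had 664 and 1143 in Ws against 1932 and 1617 in Ler (-1.02), and AT1G63770 had 744 and 715 in Ws against 1209 and 1178 in Ler (-0.71). Of these 7 differences 4 were below 2-fold. The limma calls of AT1G29070 (adjusted p up to 0.075, without Ws replicate 1 or Ler replicate 2), IDH-V (0.056, without Ws replicate 1) and AT2G41090 (0.089, without replicate 1 of either accession) were lost when 1 array was left out.

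The remaining bright genes had log2 differences of 0.44 to 0.69 in favour of Ws (AT5G16010, AT3G22240 and AT3G28900) or -0.52 to -0.79 in favour of Ler (AT3G30390, AT2G05790, AT1G25275, AT5G19250 and AT2G25520). Of these 8, only AT2G25520 kept its limma call in every other fit. The calls of AT5G16010 (adjusted p up to 0.21), AT3G22240 (0.31) and AT3G30390 (0.15) were lost under 9 to 11 of the 18 other fits, those without Ws replicate 1, either Ler array or an array of the gibberellin-deficient mutant among them. Those of AT3G28900 (0.12) and AT1G25275 (0.14) were lost without replicate 1 of either accession, that of AT2G05790 (0.15) without either Ws array or Ler replicate 2, and that of AT5G19250 (0.065) without Ws replicate 1.

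Of 68 tested probe sets for genes of the plastid genome, 2 were called higher in Ws and 3 higher in Ler, together 7.35%, near the 5.82% of all probe sets tested. The median log2 difference over the 68 was 0.14, and the 5 called are given as single genes. ccsA, needed to attach haem to plastid cytochromes c, had 1643 and 1538 in Ws against 963 and 440.3 in Ler (1.28, SE 0.32), and the Ler arrays were over 2-fold apart. The ribosomal protein gene rps2 had 1264 and 1277 in Ws against 936 and 961 in Ler (0.42). Higher in Ler were ndhA of the NADH dehydrogenase-like complex, with 832 and 833 in Ws against 1277 and 1243 in Ler (-0.60), and rbcL, the large subunit of Rubisco, with 509 and 513 in Ws against 837 and 697 in Ler (-0.58). The third was petD, a subunit of the cytochrome b6f complex, which the rule for named genes did not select (-0.77). The limma calls of ccsA (adjusted p up to 0.24) and rbcL (0.21) were lost without either Ws array and without 1 Ler array (replicate 2 and replicate 1). Those of rps2 (0.18) and ndhA (0.063) were lost without either Ws array or Ler replicate 1, and that of rps2 also without Ler replicate 2 or either array of the gibberellin-deficient mutant.

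The mutants are in different backgrounds, and their arrays took no part in the contrast of Ws and Ler, so they show in other seedlings how these probe sets behave. The gibberellin-deficient mutant is in the Ler background, and the de-etiolated mutant is in the Col background, so that mutation and background cannot be told apart in the latter. Between the mutants 19.4% of all tested probe sets were called, 9.12% higher in the gibberellin-deficient mutant and 10.3% higher in the de-etiolated mutant. Of the 370 probe sets called higher in Ws, 252 (68.1%) were called higher in the de-etiolated mutant, and 14 were called higher in the gibberellin-deficient mutant. Of the 424 called higher in Ler, 237 (55.9%) were called higher in the gibberellin-deficient mutant, and 11 were called higher in the de-etiolated mutant. As a share of the probe sets called between the mutants in these directions, the overlaps were 18.0% and 19.0%. For differences of at least 2-fold between the accessions the shares were 79.6% of 162 and 60.9% of 215. The contrasts share no array but share the estimate of spread of the fit.

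Where each mutant lay between the accessions was described by the midpoint of the Ws and Ler means on the log2 scale. Since those arrays also chose the probe sets, this is a description. Of the 162 probe sets at least 2-fold higher in Ws, both arrays of the gibberellin-deficient mutant lay on the Ler side in 128 and on the Ws side in 26. Both arrays of the de-etiolated mutant lay on the Ws side in 144 and on the Ler side in 6. Of the 215 at least 2-fold higher in Ler, the gibberellin-deficient mutant lay on the Ler side in 131 and on the Ws side in 63. The de-etiolated mutant lay on the Ws side in 185 and on the Ler side in 14. On a scale with Ler at 0 and Ws at 1, the gibberellin-deficient mutant had a median position of 0.110 where Ws was higher and 0.172 where Ler was higher. The de-etiolated mutant had medians of 1.01 and 0.978.

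**Figure D4:**
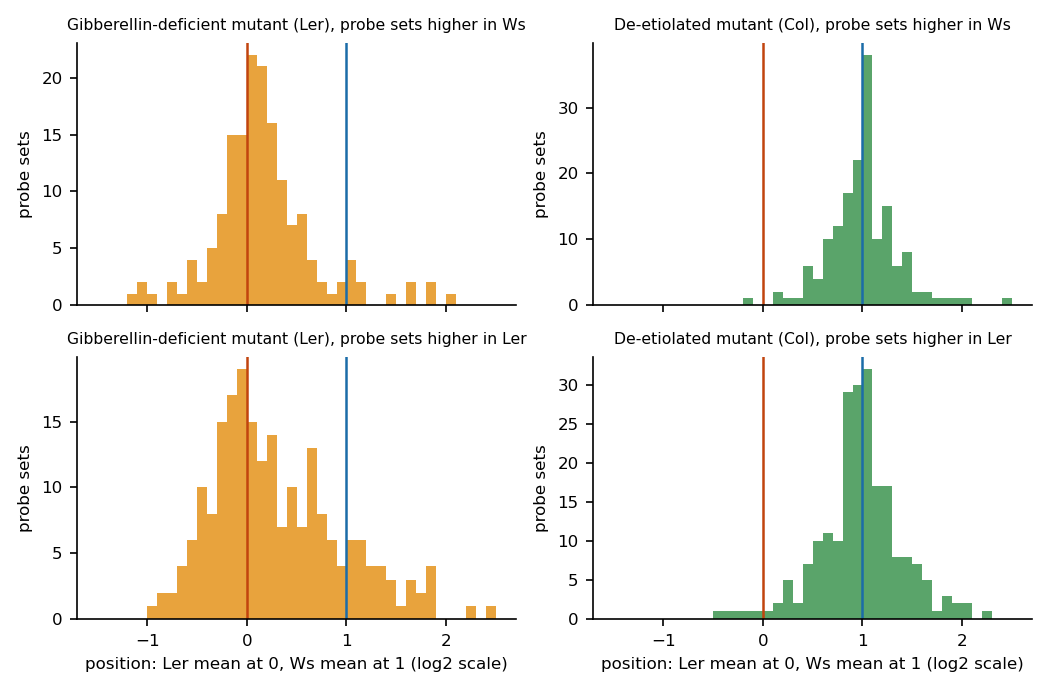
Number of probe sets (vertical) by the position of each mutant's mean on a log2 scale with the Ler mean at 0 (red line) and the Ws mean at 1 (blue line), for 162 probe sets at least 2-fold higher in Ws (top) and 215 at least 2-fold higher in Ler (bottom). The de-etiolated mutant is centred on Ws in both, and the gibberellin-deficient mutant is centred near Ler with a wider spread towards Ws where Ler was higher.

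Probe sets for which the wild type of 1 accession stood apart from the 3 other groups were mostly those of Ler. For Ler, these 3 groups include the gibberellin-deficient mutant, itself of Ler background. Apart meant only that the mutant arrays lay across the midpoint of the Ws and Ler means. Ler was higher than Ws with both mutants on the Ws side in 56 of the 215, and lower than Ws with both mutants on the Ws side in 21 of the 162. Ws stood apart in 9 and 2. The genes named here were picked after their values were seen. AT1G65500 had 533 and 466 in Ler, 49.9 and 62.6 in Ws, 25.5 and 11.4 in the gibberellin-deficient mutant and 25.2 and 29.8 in the de-etiolated mutant. AT2G43620 had 1196 and 654 in Ler, 92.02 and 209 in Ws, 112 and 91.98 in the gibberellin-deficient mutant and 109 and 59.4 in the de-etiolated mutant. ECS1, at 283 and 141 in Ler, had 48.7 and 43.8 in the gibberellin-deficient mutant and 28.1 and 19.9 in the de-etiolated mutant. In these 3 genes the lowest Ler array was above all arrays of the other groups, although AT2G43620 was above the 75th percentile in 3 of those arrays. Ws stood apart for AT5G22580, with 38.7 and 45.2 against 229 and 139.7 in Ler, 122 and 95.2 in the gibberellin-deficient mutant and 182 and 192 in the de-etiolated mutant.

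Agreement between the Ler arrays was described by where the gibberellin-deficient mutant lay. Among the 131 at least 2-fold higher in Ler with that mutant on the Ler side, the median absolute log2 difference between the Ler arrays was 0.18, and Ler replicate 1 was higher in 62. In these 131, Ler replicate 1 was at least 2-fold higher in 3 and Ler replicate 2 in 2. Among the 63 with the mutant on the Ws side the median was 0.25, and Ler replicate 1 was higher in 41 (65.1%). In these 63, Ler replicate 1 was at least 2-fold higher in 7 and Ler replicate 2 in 0. Over all tested probe sets Ler replicate 1 was higher in 46.7%, by at least 2-fold in 73, and Ler replicate 2 was at least 2-fold higher in 63. AT5G55450 had 1339 and 624 in Ler, against 132 and 109 in that mutant. AT5G03350, near background in 6 arrays, had 800.0 and 183 in Ler, but was not tested and so is not one of the 63. AT2G43530 had 275 and 135 in Ler and 60.5 and 52.5 in the mutant. In each of the 3 genes replicate 1 of Ler was the highest array.

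**Figure D5:**
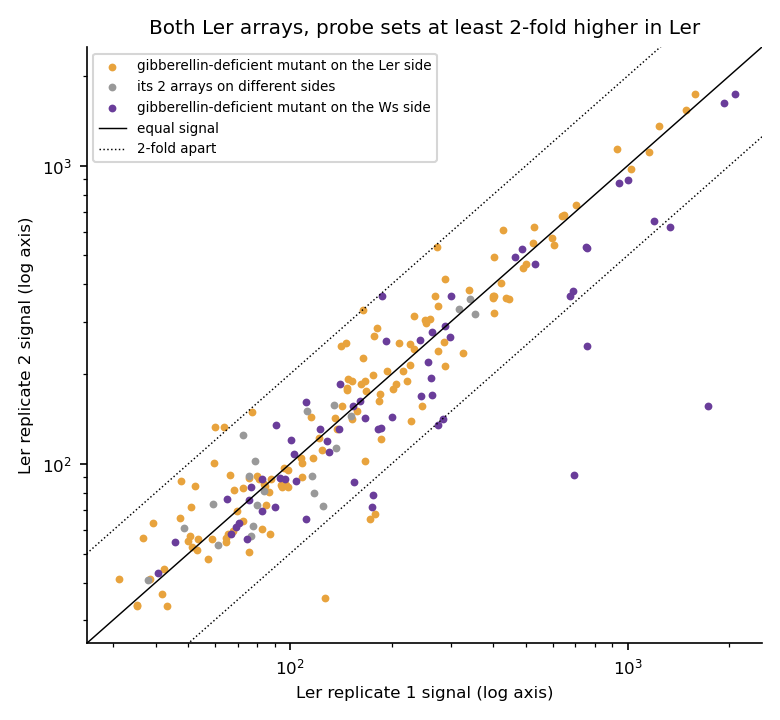
Signal of Ler replicate 1 (horizontal) and Ler replicate 2 (vertical) on log axes for the 215 probe sets at least 2-fold higher in Ler than in Ws, coloured by the side of the gibberellin-deficient mutant; the solid line marks equal signal and the dotted lines a 2-fold difference. Purple points, with the mutant on the Ws side, include 7 at least 2-fold higher in replicate 1 and 0 at least 2-fold higher in replicate 2, counted on the log2 scale of the fit. With the mutant on the Ler side these counts were 3 and 2.

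Called genes were spread over all 5 chromosomes, at 5.26% to 6.49% of the probe sets naming 1 gene on each. In the gene order of the TAIR10.1 assembly, 7137 tested genes had a place, and 5.69% of them were called. Of 2115 pairs of direct neighbours with both genes tested, both were called in 17 pairs, 14 in the same direction and 3 in opposite directions. Of the tested neighbours of called genes 15.5% were called. AT5G38020 (3.90) and its neighbour AT5G38030 (1.79) were both higher in Ws, as were MSRB5 (1.03) and MSRB6 (0.65), which encode related enzymes. AT5G45500 (3.61) lies beside AT5G45510 (0.72). DER2.1 (-1.35) and its neighbour QQT2 (-1.17) were both higher in Ler. The pair AT5G23830 (4.02) and AT5G23840 (-1.78) went in opposite directions, as did AT2G25510 (5.70) and AT2G25520 (-0.79). Signal of AT5G23840 was 21.98 and 25.9 in Ws and 59.9 and 132 in Ler. Probe sets that name several genes were called in 12.1% of cases and those that name 1 gene in 5.63%. For probe sets marked by their suffix as matching several transcripts the share was 9.19%, and whether neighbouring relatives share sequence under their probes was not tested.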

How the data were processed

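Signal intensities of 8 Affymetrix arrays were used as deposited by the authors, 1 value per probe set and array. The submitters' processing notes name MAS5, and its settings are not given in the sources used here. Groups of 2 arrays were taken from the labels. Separate cultures for the arrays of an accession are not stated, and p-values therefore measure only the spread between these samples. The number of arrays limits the precision.

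Of 22810 probe sets, 64 array controls were set aside. The array's annotation gives 13513 probe sets 1 gene and 503 several. The other 8730 stay unnamed here. A symbol other than the locus tag was given for 1580. Gene order came from assembly TAIR10.1.

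Signals were transformed to log2(signal + 2.96), with a pseudocount of 10% of the median of 29.6 over probe sets naming a gene. The lowest 40% by mean log2 value over all 8 arrays were left out. The other 13648 were fitted with limma (lmFit, contrasts.fit, eBayes with trend) over 4 groups. The fit had 4 residual and 8.00 prior degrees of freedom and a median SE of 0.197. Two-sided p-values were adjusted by the Benjamini-Hochberg method, with calls at 0.05. Data for Ws against Ler with 13648 probe sets were simulated with independent normal noise of the spread estimated by the fit. In Ws, 100 probe sets were raised 2-fold and 100 lowered 4-fold. Of these, 81 changed 2-fold and 100 changed 4-fold were recovered, with 17 false calls. Real arrays can vary otherwise, so these counts do not give the sensitivity of the real comparison.

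Genes and gene lists were chosen with earlier results of these data known. Named genes were, in each direction, the 12 largest called differences with a symbol, the 8 largest with a locus tag only and the 10 called of highest mean signal, each from probe sets naming 1 gene (for the first 2 also with no overlap between the Ws and Ler arrays), and the genes near background in one accession and bright in the other. Called list members, up to 4 a list, and measured members of the flowering and methionine-derived glucosinolate lists were added. Other genes were named after their values were seen. Alternatives covered normalization, pseudocount, filter, trend, samples in the fit, threshold, probe sets matching several transcripts, a replicate block, the signal limits and leaving out each array. Software was R 4.3.3, limma 3.58.1, Python 3.11.15, matplotlib 3.10.9, pandas 2.3.3 and numpy 2.4.6.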

Additional observations from a re-analysis of the deposited data

How the results depend on the processing

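The count of 794 called probe sets was within 1.5 times of itself under quantile normalization (752), median centring (770), either other pseudocount (830 and 782), no filter (538), a filter of the lowest 60% (628), no trend (552), a fit of the 4 wild-type arrays alone (576) and without probe sets matching several transcripts (752). At an adjusted p under 0.01 it was 308. Leaving out 1 array gave 351 to 853. The 377 probe sets at least 2-fold apart became 236 with the lowest 60% left out, 245 at an adjusted p under 0.01, and 292 to 391 without 1 array. The labels do not pair the replicates, and 2 per group are too few to judge pairing from the data (differences between replicates correlated at 0.137 between Ws and Ler). With a replicate block 882 probe sets were called. Near background in Ler and bright in Ws were 19 probe sets with the bright limit at the 60th percentile and 1 at the 90th. Near background in Ws and bright in Ler were 25 and 1, and 4 with the background limit at the 25th percentile. Leaving out 1 wild-type array gave 5 to 7 and 8 to 17. Of the 60 named genes that were called, 37 were called under all 18 other fits that tested them. In the named genes, 1 difference changed sign, that of GI, from -0.13 to 0.25 without Ws replicate 2 (-0.52 without Ws replicate 1), and the cause was not tested. Signals near background limit the fold changes that can be measured.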
